A study of Mus musculus with 15 samples.

Results

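The enzymes that build cholesterol and the proteins that switch their genes on were followed, as a list of 26 genes, through RNA sequencing of aortic macrophages labelled Olfr2+ or Olfr2-. All 26 were found, 1 row each, among the 47729 features of the count table, and 25 passed edgeR's expression filter; Idi1 did not. Per the labels, F4/80+ CD64+ macrophages were sorted from pooled aortas of 4 female Apoe-/- mice, which lack apolipoprotein E and are prone to atherosclerosis, after 4 weeks of a high fat diet. Both groups share that genotype and diet, and differ in whether the cells were sorted as carrying Olfr2, an olfactory receptor. The mice's age is not given in the labels. Olfr2+ comprised 10 columns from numbered samples 2, 3 and 4, and Olfr2- comprised 5 columns from numbered samples 1, 3 and 4. Each sort held 100 to 200 cells, and cDNA was amplified by Smart-Seq2 for 18 cycles of PCR before the library was made. The labels call the sorts technical replicates and tie no number to an animal, so a p-value here reflects the spread among these samples alone, which may be technical.

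Cells make cholesterol from acetyl-CoA: the mevalonate arm builds isoprene units and joins them, and the later enzymes turn squalene into a ring and trim it to cholesterol. The genes are switched on by SREBP transcription factors, which sit in the endoplasmic reticulum bound to the sterol sensor SCAP. When sterol is plentiful, INSIG proteins hold that complex back; when it is scarce, the complex leaves for the Golgi, the factor is cut free and the genes are transcribed. Macrophages that take up lipoprotein cholesterol are known to turn the programme down, and INSIG1 is itself one of its targets.

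SREBPs are known to bind the sterol regulatory element, commonly next to NF-Y, which reads CCAAT. RefSeq promoter sequences (GRCm38.p6, 250 bases before to 50 after the start) were matched by symbol for 22 of the 26 genes. The letters TCACNCCAC, searched on both strands, were found for 1 of the 22 genes, Hmgcs1, against 1.44% of all 27025 genes; by promoter that is 1 of 30, against 1.24% of all 32851 promoters. The letters CCAAT, also on both strands, were found for 20 of the 22 genes, against 41.1% of all genes, and in 21 of the 30 member promoters, against 37.4% of all promoters. These motifs do not overlap in the promoters shown. Shown are the promoter of Hmgcs1, which holds the TCACNCCAC match, and those of Ebp and Msmo1, the members with smallest p in the comparison. Capitals mark TCACNCCAC and CCAAT, or ATTGG where CCAAT is on the other strand. Hmgcs1 lies on the plus strand at chr13:119690101-119690400, Ebp on the minus strand at chrX:8193463-8193762 and Msmo1 on the minus strand at chr8:64733529-64733828.
Hmgcs1: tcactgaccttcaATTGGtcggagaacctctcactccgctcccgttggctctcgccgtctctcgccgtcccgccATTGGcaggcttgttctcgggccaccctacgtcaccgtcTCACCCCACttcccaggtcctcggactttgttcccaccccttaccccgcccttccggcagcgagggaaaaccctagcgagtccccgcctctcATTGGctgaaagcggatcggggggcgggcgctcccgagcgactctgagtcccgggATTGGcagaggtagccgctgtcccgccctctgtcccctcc
Ebp: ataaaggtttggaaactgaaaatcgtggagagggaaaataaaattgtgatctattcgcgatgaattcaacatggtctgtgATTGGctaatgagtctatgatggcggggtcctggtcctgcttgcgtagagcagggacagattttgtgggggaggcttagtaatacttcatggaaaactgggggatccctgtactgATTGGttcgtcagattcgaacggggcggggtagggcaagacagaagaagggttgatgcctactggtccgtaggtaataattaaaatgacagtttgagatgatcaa
Msmo1: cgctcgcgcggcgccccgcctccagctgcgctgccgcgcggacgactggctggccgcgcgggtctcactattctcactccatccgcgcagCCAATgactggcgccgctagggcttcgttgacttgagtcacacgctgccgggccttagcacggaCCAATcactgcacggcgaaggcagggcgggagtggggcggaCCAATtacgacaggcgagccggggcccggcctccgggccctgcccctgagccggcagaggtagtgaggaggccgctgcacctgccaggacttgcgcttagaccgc
The match in Hmgcs1 read TCACCCCAC and began 137 bases before the start site. A match describes letters in this window and no binding was measured. Only these exact letters were searched for, so the lack of a match does not show that a gene lacks a sterol element.

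Column totals were 76.0 to 95.6 M counts in 7 Olfr2+ columns (2A to 2D and 3A to 3C), 29.9 to 37.6 M in the other 3 (3D, 4A and 4B) and 30.5 to 53.2 M in the 5 Olfr2- columns. The 7 deeper columns stand apart in content as well, so values are given below with and without them, dividing at 60 M. Protein-coding genes held 94.6 to 97.5% of a deeper column's counts, 78.5 to 80.4% for the remaining Olfr2+ columns and 79.5 to 85.6% for Olfr2-. Mitochondrial genes held 2.53 to 5.43%, 7.51 to 12.2% and 7.26 to 10.3% in the same 3 sets, in that order. A list of 8 fibroblast markers summed to 29475 to 36001, 2271 to 4864 and 2181 to 3896 CPM (counts scaled to an equal column total of 1 M) in those 3 sets, in that order, with 7 of the 8 called higher over all columns. A list of 6 B cell markers summed to 213 to 5391, 35209 to 54905 and 22929 to 41534 CPM, with 0 of 6 called and Cd79a at 0 in some deeper columns. A list of 10 macrophage markers summed to 7483 to 15516, 2093 to 3905 and 1252 to 8375 CPM, with 4 of 10 called higher and none at 0 in any column. A list of 5 adipocyte markers summed to 179 to 421 CPM in the Olfr2+ columns under 60 M, above the 8.08 to 166 CPM of the Olfr2- columns and the 1.12 to 26.3 CPM of the deeper columns, with 0 of 5 called and 4 of the 5 at 0 in some deeper columns. Lists of T cell, smooth muscle and endothelial markers also had 0 genes called. Of all genes tested over all columns, 1.12% were called higher and 0.46% lower, and over the columns under 60 M 0 were called. Of the sort markers, Adgre1 (F4/80) was at 46 to 312 CPM in Olfr2+ columns and 9.48 to 235 CPM in Olfr2- columns, and Fcgr1 (CD64) at 0.544 to 103 CPM and 4.18 to 20 CPM. The Olfr2 transcript had 1, 9 and 8 counts in the samples labelled Olfr2+, against 76, 34 and 35 in those labelled Olfr2-. That goes against the label but did not pass (log2 fold change -3.55, SE 1.39, edgeR adjusted p = 0.104). In columns under 60 M the log2 fold change was -1.82 (SE 1.13). With TMM scaling all Olfr2+ samples lay below all Olfr2- samples, as for 22.1% of all genes tested. Directions below are therefore between the libraries labelled so. The part of these differences in the results below was not tested. In bulk samples, fewer cells of a type and less RNA per cell cannot be told apart.

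Cholesterol genes were weakly and patchily detected. Together the 26 genes summed to between 197 and 695 CPM in a deeper Olfr2+ column, between 106 and 553 in another Olfr2+ column and between 163 and 945 in an Olfr2- column, so the 3 sets overlapped. At least 1 CPM was reached by 10 to 21 of the 26 genes in a deeper column, by 12 to 19 in another Olfr2+ column and by 17 to 25 in an Olfr2- column. Over all features the numbers at 1 CPM ran the same way, at 6773 to 11238, 9540 to 11062 and 10074 to 18551. The 5 genes that reached 1 CPM in all 15 columns were Lbr, Srebf1, Srebf2, Scap and Insig2. At the other end Idi1, which isomerises isopentenyl diphosphate, reached 1 CPM in 1 column, and Tm7sf2, a sterol reductase whose reaction Lbr also carries out, in 2.

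**Figure D1:**
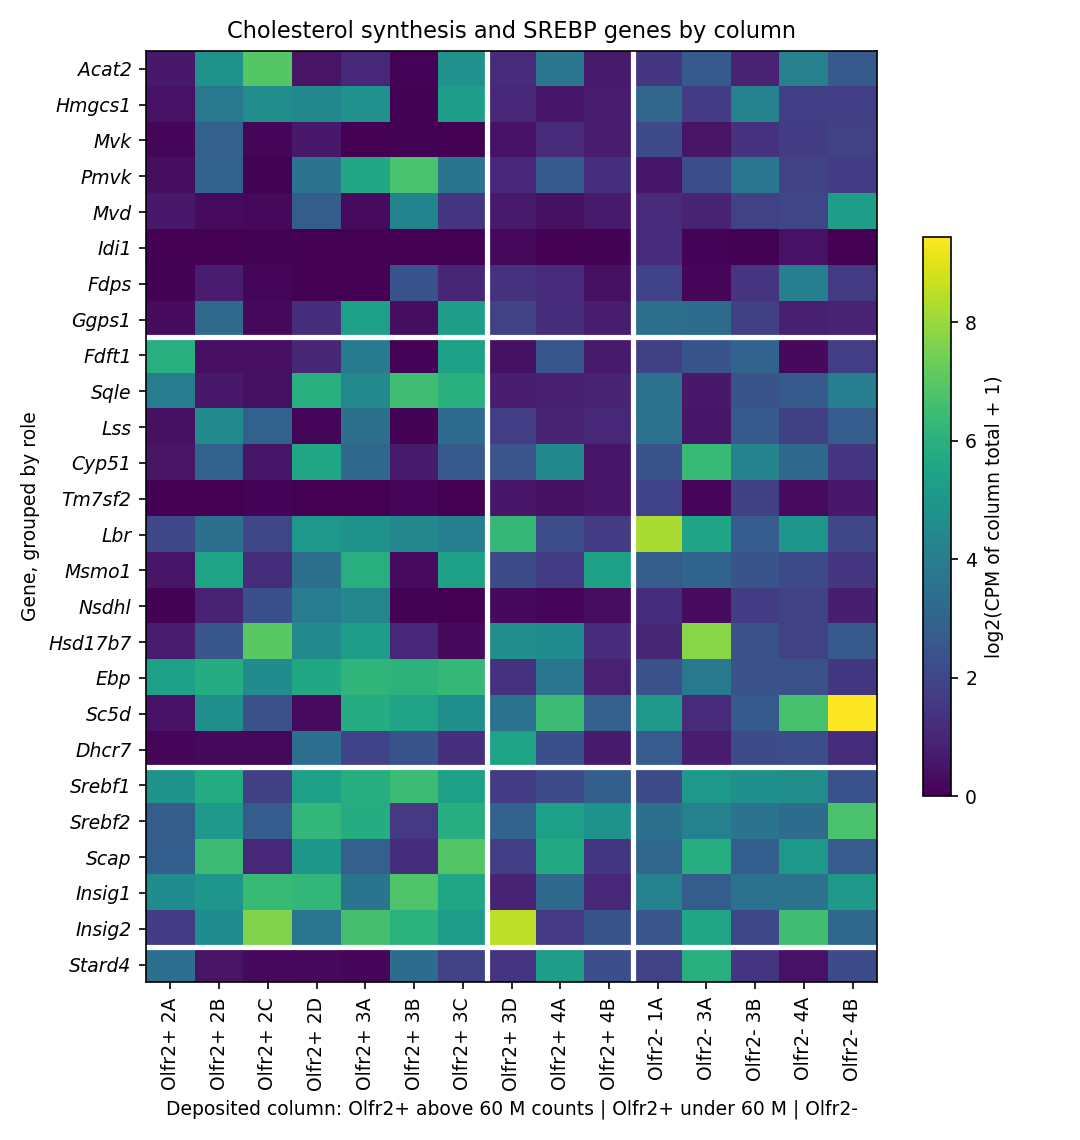
Level of each of the 26 genes (rows, grouped by role) in each of the 15 deposited columns, as log2 of CPM of the column total plus 1; white lines part the 7 Olfr2+ columns above 60 M counts, the 3 Olfr2+ columns under 60 M and the 5 Olfr2- columns. Ebp is the row in which all deeper columns, at 22.4 to 77.4 CPM, lie above all others, and many rows have a few bright columns beside near-empty ones.

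Repeat columns of a single library name often disagreed. Over the 7 such pairs of columns, 2 to 11 of the 26 genes differed by more than 10-fold after adding 1 CPM to each, most often between Olfr2+ 3C and 3D, which lie on either side of 60 M. That is 7.69 to 42.3% of the members, against 5.81 to 16% of all genes tested, and the members' share was the higher in each of the 7 pairs. With 1 CPM added, a gene low in both columns cannot reach 10-fold. These shares therefore depend on level, for which the members and all genes were not matched. For Acat2, Olfr2+ columns 2A and 2B, grouped under 1 library name, had 0.57 and 27.9 CPM. Columns 2C and 2D, grouped under another, had 124 and 0.399 CPM. Library name here means 1 of 8 names that group the 15 columns, while the descriptions also give each column its own name. Whether columns grouped so come from 1 library is uncertain. For 5 of the 25 genes tested a single column held over 50% of the summed CPM, which is 20% of them, against 22.6% of all genes tested. Differences between groups below stand beside a spread of this size within a sample.

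With counts summed per numbered sample, Olfr2+ samples 2, 3 and 4 totalled 364, 273 and 67.5 M, while totals of Olfr2- samples 1, 3 and 4 were 30.5, 85 and 73.9 M. No cholesterol gene passed the test between Olfr2+ and Olfr2-. Of the 25 tested, 0 were called higher and 0 lower by edgeR's quasi-likelihood test (Benjamini-Hochberg adjusted p under 0.05 over all 24362 genes tested), against 1.12% called higher and 0.46% called lower of all genes. An unadjusted p under 0.05 was reached by 4 of the 25, or 16%, against 32.1% of all genes. limma-voom called 0 of all 24362 genes, members included, with 7537 genes at an unadjusted p under 0.05. DESeq2 called 5 of 24 members higher, Acat2, Pmvk, Fdft1, Msmo1 and Ebp, or 20.8%, against 14% of all genes, and 0 lower, against 9.37%. With each column taken as a sample, edgeR called 0 of 25 either way, against 3.18% of all genes higher and 1.2% lower. That fit takes repeat columns of a numbered sample as independent, so its p-values do not measure the spread between samples. The fitted log2 fold change (Olfr2+ over Olfr2-) was above 0 for 19 of the 25, or 76%, against 52.5% of all genes. Its median was 1.72 for the cholesterol genes and 0.24 for all genes. Among genes averaging at least 10 CPM, with the same scaling, the median was 2.1 for the 15 members tested and 1.67 for all 8504 genes. On CPM scaled with edgeR's TMM factors, all 3 Olfr2+ samples lay above all 3 Olfr2- samples for Acat2, Msmo1, Ebp, Srebf2 and Scap. That is 5 of 25 or 20%, against 13.5% of all genes, and 0 lay below, against 22.1% of all genes. The factors were 0.485 to 0.868 for Olfr2+ samples and 1.34 to 1.66 for Olfr2- samples. With counts divided by sample totals alone, Acat2, Ebp, Srebf2 and Scap overlapped between the labels and Msmo1 did not.

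Without the deeper columns most fitted values were below 0. Over the columns under 60 M counts, 2 Olfr2+ samples (3 and 4) against 3 Olfr2- samples, the log2 fold change was above 0 for 9 of 26 genes, or 34.6%, against 40.2% of all genes, and the median was -0.75 for the cholesterol genes and -0.43 for all genes. edgeR called 0 genes there in either direction, and 3 of 26 members, or 11.5%, had an unadjusted p under 0.05, against 10.4% of all genes. Both fits use the same Olfr2- samples. The scaling matters too: on library totals alone the median over all columns was 0.59 for the cholesterol genes and -0.88 for all genes.

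**Figure D2:**
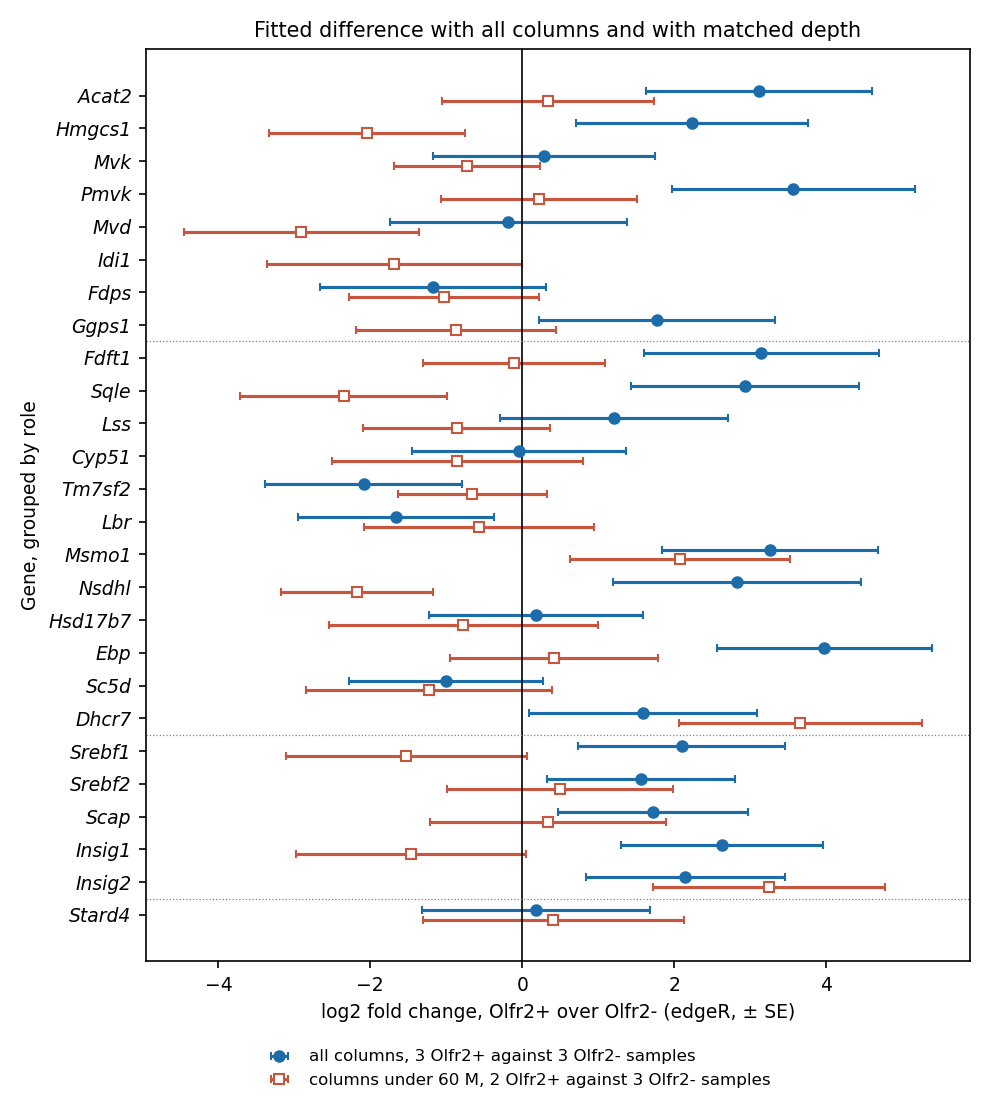
Fitted log2 fold change of Olfr2+ over Olfr2- with its SE (edgeR) for each gene, grouped by role, over all columns (filled circles) and over the columns under 60 M counts (open squares). Most filled circles lie right of 0 with a median of 1.72 and most open squares left of it with a median of -0.75, and the bars are wide; Idi1 was not tested over all columns.

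In the mevalonate arm, 0 of 7 tested genes passed, and 5 of 7 had a log2 fold change above 0. Sample levels from here on are CPM scaled with edgeR's TMM factors, while levels by column are CPM of the column total. Pmvk (ENSMUSG00000027952.16), phosphomevalonate kinase, was at 9.39, 69 and 4.13 CPM in Olfr2+ samples 2, 3 and 4, against 0.298, 5.1 and 1.55 CPM in Olfr2- samples 1, 3 and 4. Olfr2+ sample 3 stood highest, and Olfr2+ sample 4 lay below Olfr2- sample 3, so the groups overlapped. Its log2 fold change was 3.57 (SE 1.6 and p = 0.133 after edgeR's adjustment) over all columns and 0.22 (SE 1.29 and p = 0.959 after edgeR's adjustment) in those under 60 M. Acat2 (ENSMUSG00000023832.13), a cytosolic acetyl-CoA acetyltransferase that makes the acetoacetyl-CoA entering the pathway, was at 80.5, 11.3 and 7.98 CPM in Olfr2+ samples 2, 3 and 4, against 1.11, 2.78 and 7.59 CPM in Olfr2- samples 1, 3 and 4. The groups did not overlap with TMM scaling, but the lowest Olfr2+ and the highest Olfr2- values were close. Column Olfr2+ 2C held 55.3% of the summed CPM. Its log2 fold change was 3.12 (SE 1.49 and p = 0.15 after edgeR's adjustment), and 0.34 (SE 1.4) in the columns under 60 M.

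Hmgcs1, the HMG-CoA synthase whose promoter is shown above, was at 29.7, 26.9 and 0.649 CPM in Olfr2+ samples 2, 3 and 4, against 4.67, 5.91 and 1.55 CPM in Olfr2- samples 1, 3 and 4. Olfr2+ samples 2 and 3 were the highest of the 6 and Olfr2+ sample 4 the lowest. The log2 fold change was 2.24 (SE 1.53) over all columns (p = 0.279 after edgeR's adjustment) and -2.05 (SE 1.29) in the columns under 60 M. By column, the 3 Olfr2+ columns under 60 M, at 0.479 to 1.12 CPM, lay below all 5 Olfr2- columns, at 2.18 to 17.4 CPM. Mvd, mevalonate diphosphate decarboxylase, did the same, at 0.346 to 0.62 CPM against 0.921 to 37.9 CPM; these 2 genes are 2 of the 25 tested, where 5.18% of all genes tested had all 3 Olfr2+ columns below the 5 Olfr2- columns; 0 of 25 had them above, against 1.02% of all genes. The Mvd level in Olfr2- sample 4 set its fold change, which was -0.18 with all samples and 2.0 without that sample.

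The remaining genes of the arm were low. Mevalonate kinase (Mvk) averaged 1.7 ± 1.97 CPM in Olfr2+ and 1.39 ± 0.679 CPM in Olfr2- (SD, n = 3 each), and Fdps, the farnesyl diphosphate synthase, 1.26 ± 1.01 and 2.84 ± 3.09 CPM. For Fdps 26.7% of the exon bases are shared with another annotated gene, so its count is uncertain. Ggps1, which makes geranylgeranyl diphosphate for protein prenylation, averaged 13.3 ± 17.4 CPM in Olfr2+ and 3.89 ± 2.96 CPM in Olfr2-, with a log2 fold change of 1.78 (SE 1.55). Idi1 had 4, 5 and 1 counts in Olfr2+ samples 2, 3 and 4, against 38, 4 and 16 counts in Olfr2- samples 1, 3 and 4. Summed over the 8 genes, a deeper Olfr2+ column held between 2.14 and 148 CPM, one of the other 3 Olfr2+ columns between 4.95 and 21.9 CPM and an Olfr2- column between 21.9 and 53.4 CPM.

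**Figure D3:**
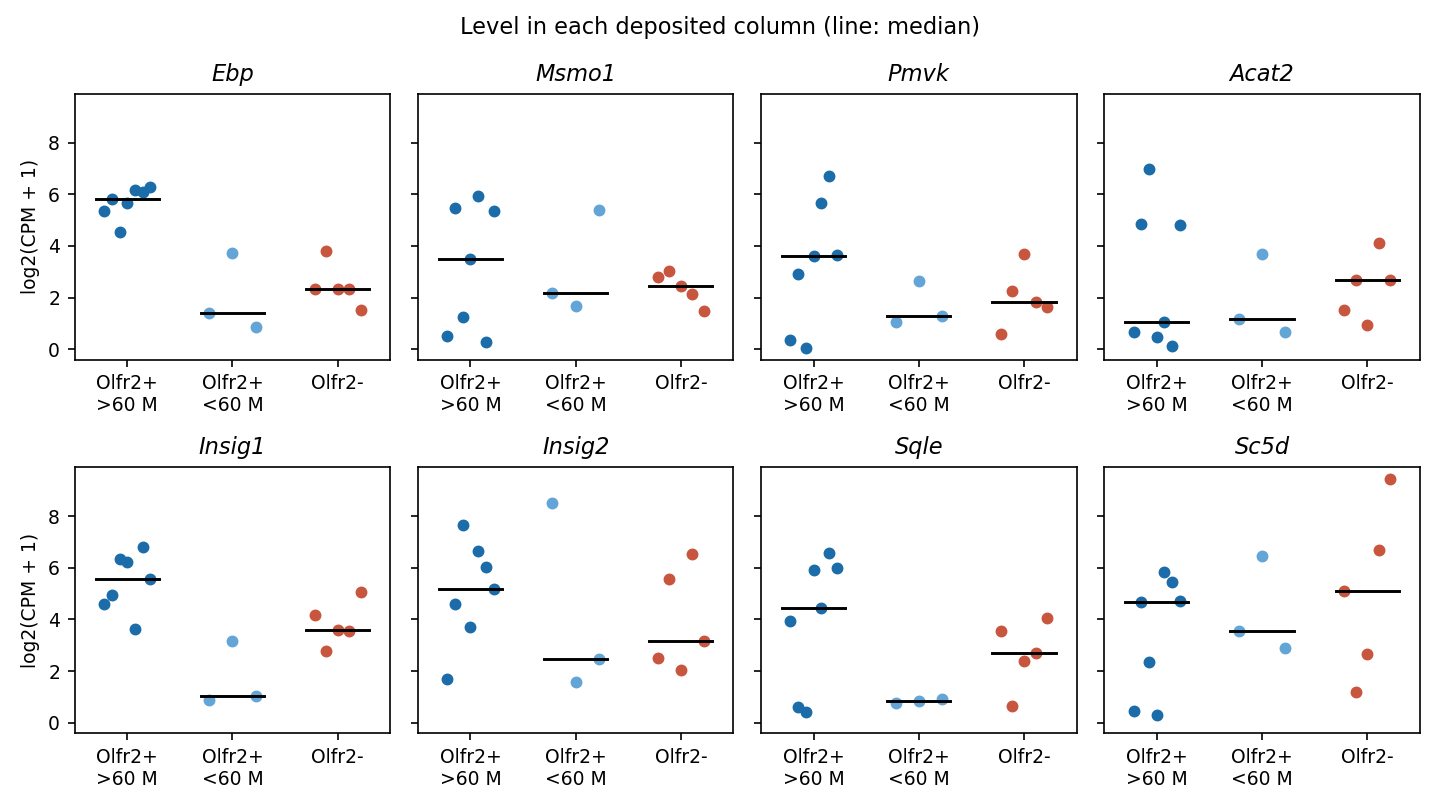
Level of 8 of the genes in each deposited column, as log2 of CPM plus 1, for Olfr2+ columns above 60 M counts, Olfr2+ columns under 60 M and Olfr2- columns; the line is the median. Ebp separates the deeper columns from all others, Insig1 separates them from the other Olfr2+ columns, and Acat2, Msmo1 and Sqle spread from near 0 to high values within the deeper columns.

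Of the 12 enzymes from squalene to cholesterol 0 passed, and 8 had a log2 fold change above 0. Ebp (ENSMUSG00000031168.14), the sterol isomerase that shifts a double bond late in the pathway, had the smallest p of the 26 genes. It was at 86.9, 89.2 and 8.27 CPM in Olfr2+ samples 2, 3 and 4, against 2.44, 7.19 and 2.05 CPM in Olfr2- samples 1, 3 and 4. Olfr2+ samples 2 and 3 stood far above the rest, and with TMM scaling Olfr2+ sample 4 lay just above the highest Olfr2- sample. The log2 fold change was 3.98 (SE 1.42 and p = 0.0887 after edgeR's adjustment). By column it followed the depth set. It was at 22.4 to 77.4 CPM in the 7 deeper Olfr2+ columns, at 0.837 to 12.2 CPM in the other 3 and at 1.87 to 12.9 CPM in the Olfr2- columns. Ebp was the single member of the 25 tested with every deeper column above every other column, where 1.41% of all genes tested did so, and in the columns under 60 M its log2 fold change was 0.42 (SE 1.37 and p = 0.928 after edgeR's adjustment).

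Msmo1 (ENSMUSG00000031604.10), the methylsterol oxidase, was at 29.5, 43.2 and 22.5 CPM in Olfr2+ samples 2, 3 and 4, against 3.55, 4.6 and 1.76 CPM in Olfr2- samples 1, 3 and 4. The samples were tight within each label and far apart between labels, with a log2 fold change of 3.26 (SE 1.42 and p = 0.126 after edgeR's adjustment) and of 2.08 (SE 1.45 and p = 0.61 after edgeR's adjustment) in the columns under 60 M. The columns behind them were not tight. In Olfr2+ sample 4 column 4B had 41.3 CPM and 4A had 2.18, and in sample 3 columns 3A to 3D had 59.7, 0.207, 40.2 and 3.49 CPM. The Olfr2- columns lay between 1.78 and 7.14 CPM.

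Sqle (ENSMUSG00000022351.14), the squalene epoxidase and a rate-limiting step, was at 38, 71.4 and 0.974 CPM in Olfr2+ samples 2, 3 and 4, against 6.49, 1.48 and 6.44 CPM in Olfr2- samples 1, 3 and 4. Olfr2+ samples 2 and 3 were highest and sample 4 lowest, so the groups overlapped. The log2 fold change was 2.94 (SE 1.5 and p = 0.169 after edgeR's adjustment) over all columns and -2.35 (SE 1.36 and p = 0.535 after edgeR's adjustment) in those under 60 M. Nsdhl (ENSMUSG00000031349.4), a sterol dehydrogenase of the demethylation complex, had the same shape, at 10.4, 8.75 and 0.188 CPM in Olfr2+ samples 2, 3 and 4, against 0.834, 0.696 and 1.19 CPM in Olfr2- samples 1, 3 and 4. Its log2 fold change was 2.83 (SE 1.63 and p = 0.212 after edgeR's adjustment) over all columns and -2.17 (SE 0.999 and p = 0.473 after edgeR's adjustment) under 60 M. Fdft1 (ENSMUSG00000021273.9), the squalene synthase, was at 30.2, 22.2 and 3.37 CPM in Olfr2+ samples 2, 3 and 4, against 1.49, 4.07 and 0.724 CPM in Olfr2- samples 1, 3 and 4. Olfr2+ sample 4 lay below Olfr2- sample 3, and the log2 fold change was 3.15 (SE 1.55 and p = 0.158 after edgeR's adjustment) over all columns and -0.11 (SE 1.2) under 60 M. Its count is uncertain, since 18.3% of its exon bases are shared with the antisense gene Ctsb, cathepsin B.

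Sc5d (ENSMUSG00000032018.13), the sterol desaturase, was at 15.9, 54 and 59.3 CPM in Olfr2+ samples 2, 3 and 4, against 20.2, 2.1 and 237 CPM in Olfr2- samples 1, 3 and 4. A single column, Olfr2- 4B at 692 CPM, held 63.3% of its summed CPM. The log2 fold change of -1.0 (SE 1.28 and p = 0.561 after edgeR's adjustment) was 2.03 without Olfr2- sample 4. Single Olfr2- samples also set Cyp51, the lanosterol demethylase, and Lbr, a sterol reductase that is also a nuclear envelope protein. Cyp51 averaged 16 ± 11.1 CPM in Olfr2+ and 16.4 ± 23.2 CPM in Olfr2- (SD, n = 3 each), and its log2 fold change of -0.04 became 2.56 without Olfr2- sample 3. Lbr averaged 22.7 ± 18.3 CPM in Olfr2+ and 71.8 ± 94.4 CPM in Olfr2-, with Olfr2- column 1A at 298 CPM, and its log2 fold change of -1.66 became 0.21 without Olfr2- sample 1.

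Of the other enzymes, Hsd17b7, a keto-reductase, averaged 39.4 ± 36.2 CPM in Olfr2+ and 34.7 ± 57.5 CPM in Olfr2-, Lss, the lanosterol synthase, 8.33 ± 7.08 and 3.61 ± 2.64 CPM, and Dhcr7, the last reductase, 6.43 ± 4.38 and 2.14 ± 1.08 CPM (SD, n = 3 each). In the columns under 60 M the log2 fold change of Dhcr7 was 3.66 (SE 1.6 and p = 0.464 after edgeR's adjustment), with column Olfr2+ 3D at 44 CPM holding 53.7% of the gene's summed CPM over all columns. Tm7sf2 averaged 0.208 ± 0.224 CPM in Olfr2+ and 0.874 ± 0.714 CPM in Olfr2-. All 7 deeper columns, at 0 to 0.0906 CPM, lay below the 8 other columns, at 0.113 CPM and above, as did 9.46% of all genes tested. No other member did so. Counts of Tm7sf2 and Lbr are uncertain, with 12.1% and 10.7% of exon bases shared with other genes.

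The 5 regulators of SREBP all had a log2 fold change above 0 over all columns, and 0 of 5 passed. Srebf2, which encodes SREBP2, the main driver of cholesterol genes, was at 62.2, 50 and 38.6 CPM in Olfr2+ samples 2, 3 and 4, against 6.24, 10.9 and 33.8 CPM in Olfr2- samples 1, 3 and 4, a log2 fold change of 1.57 (SE 1.24 and p = 0.348 after edgeR's adjustment). Scap, its escort and sterol sensor, was at 67.3, 50.3 and 35.6 CPM against 4.65, 28.6 and 13.3 CPM in the same order of samples, a log2 fold change of 1.72 (SE 1.25 and p = 0.307 after edgeR's adjustment). Neither gene overlapped between labels with TMM scaling, although for each the lowest Olfr2+ and highest Olfr2- samples were close. Both overlapped by column and with counts divided by sample totals alone. The count of Scap is uncertain, since 13.2% of its exon bases are shared with an antisense gene. Under 60 M their log2 fold changes were 0.49 (SE 1.49) and 0.34 (SE 1.55). Srebf1, whose product drives fatty acid genes, averaged 49.5 ± 38.6 CPM in Olfr2+ and 11.5 ± 10 CPM in Olfr2- (SD, n = 3 each). Its log2 fold change was 2.1 (SE 1.36) over all columns and -1.53 (SE 1.59) in those under 60 M.

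INSIG genes encode the proteins that hold SCAP back. Insig1 (ENSMUSG00000045294.11) was at 107, 69 and 5.69 CPM in Olfr2+ samples 2, 3 and 4, against 10.3, 5.81 and 13.3 CPM in Olfr2- samples 1, 3 and 4. Olfr2+ samples 2 and 3 were the highest and Olfr2+ sample 4 the lowest of the 6. The log2 fold change was 2.63 (SE 1.33 and p = 0.165 after edgeR's adjustment) over all columns and -1.46 (SE 1.52 and p = 0.747 after edgeR's adjustment) under 60 M. Within Olfr2+, all 7 deeper columns, at 11.4 to 112 CPM, lay above the other 3, at 0.857 to 8.01 CPM; Ebp and Insig1 were the 2 members of 25 with this pattern, which 2.85% of all genes tested showed. Insig2 (ENSMUSG00000003721.14), its paralogue, was at 125, 148 and 3.57 CPM in Olfr2+ samples 2, 3 and 4, against 2.8, 22.9 and 36.9 CPM in Olfr2- samples 1, 3 and 4. Its log2 fold change was 2.15 (SE 1.31 and p = 0.231 after edgeR's adjustment) over all columns and 3.25 (SE 1.53 and p = 0.478 after edgeR's adjustment) under 60 M, where column Olfr2+ 3D had 362 CPM and columns 4A and 4B had 1.97 and 4.52 CPM. Whether the INSIG genes differed from each other was not tested.

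Stard4, which carries cholesterol between membranes and is an SREBP target, averaged 12.1 ± 12.1 CPM in Olfr2+ and 10.6 ± 16.1 CPM in Olfr2- (SD, n = 3 each), a log2 fold change of 0.19 (SE 1.5). Per kilobase of merged exon (GENCODE vM21), the highest mean TMM-scaled levels over the 6 samples were 16.3 for Insig2, 14.2 for Ebp, 13.3 for Sc5d and 11.4 for Insig1, and the lowest were 0.123 for Tm7sf2 and 0.0475 for Idi1. The ranges of the first 4 genes over the 6 samples overlapped from gene to gene.

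**Figure D4:**
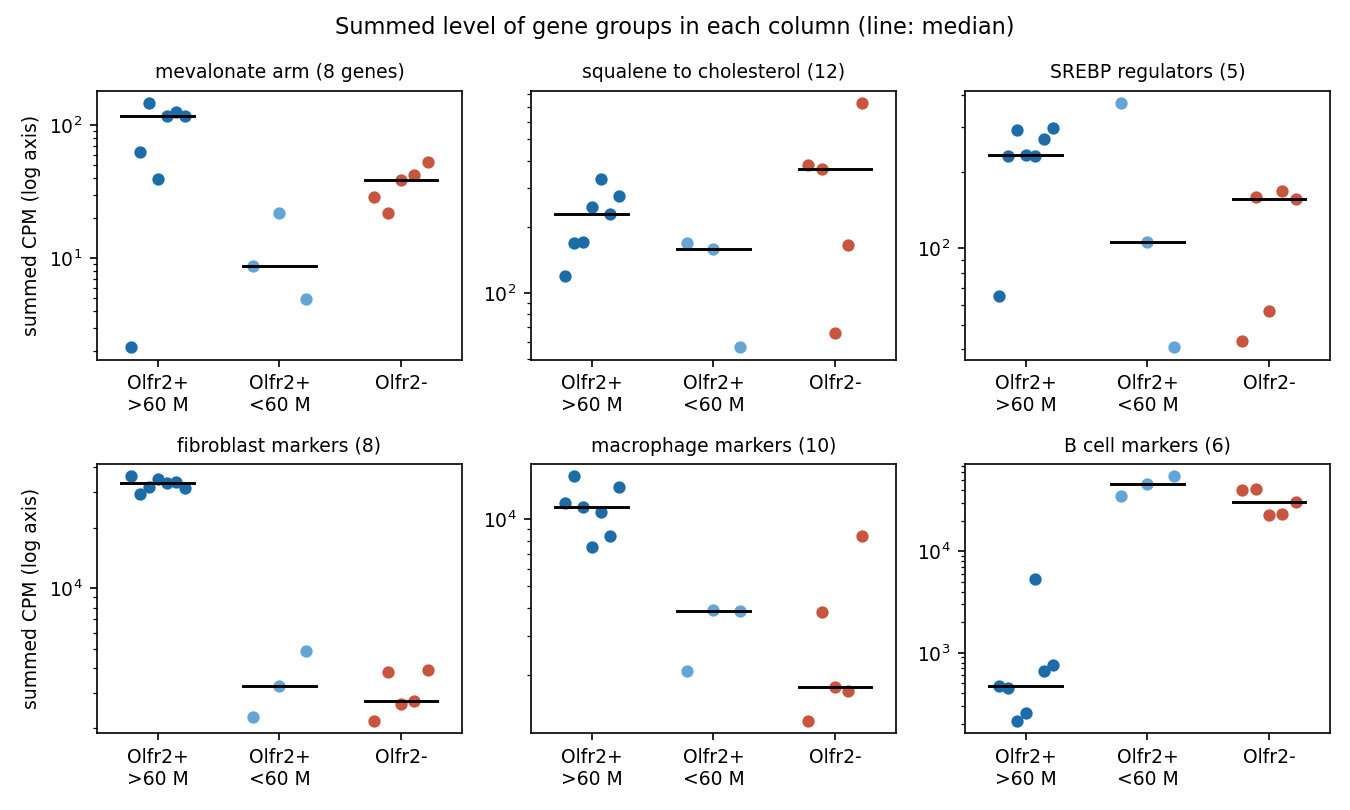
Summed CPM of the 3 larger groups of cholesterol genes (top) and of 3 marker lists (bottom) in each column, on log axes, for Olfr2+ columns above 60 M counts, Olfr2+ columns under 60 M and Olfr2- columns; the line is the median. The cholesterol groups overlap between the sets, and in the mevalonate arm the Olfr2+ columns under 60 M reach 21.9 CPM at most, which is the lowest Olfr2- value, while the fibroblast and B cell lists part the deeper columns from the rest.

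Further lists of related genes were read in the same way. Among other sterol pathway genes the most abundant described here was Mylip, an LXR target that degrades lipoprotein receptors, which averaged 234 ± 24.3 CPM in Olfr2+ and 79.6 ± 24.9 CPM in Olfr2- (SD, n = 3 each), without overlap (log2 fold change 1.56, SE 0.957, edgeR adjusted p = 0.235). Of the 15 fatty acid targets of SREBP1, 0 passed, with a median of 1.8, and the most abundant, the desaturase Scd2, averaged 295 ± 182 and 190 ± 123 CPM. Of 14 genes that use isoprenoids, such as prenyltransferases, 0 passed, with a median of 1.17, and the most abundant, the carboxyl methyltransferase Icmt, averaged 106 ± 177 and 15.7 ± 20.8 CPM (SD, n = 3 each). On library totals or without the deeper columns Scd2 had a log2 fold change of -0.74 or -0.95, against 0.64 as fitted over all columns, and Icmt without the deeper columns one of -3.23, against 2.75.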

How the data were processed

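RNA was measured in 15 columns of sorted aortic macrophages. The authors deposited raw counts, whole reads assigned to each gene, in a table named for HTSeq. STAR 2.7.1, DRAGEN, DESeq2 1.34 and the build GRCm39 are named in the submitters' processing notes without roles; the annotation release and strand setting are not stated in the labels. Smart-Seq2 marks no strand and carries no molecular identifiers, so overlapping and antisense genes are uncertain and counts are not independent molecules. All columns were mapped by the name in their descriptions.

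Columns were summed per numbered sample, a reading of the titles, giving 3 Olfr2+ and 3 Olfr2- samples. No pair of the 105 column pairs agreed within sampling noise (chi-square at least 573 per degree of freedom). Genes were tested with edgeR 4.0.16 (R 4.3.3; TMM, filterByExpr, quasi-likelihood F test, Benjamini-Hochberg over all genes tested). SEs come from the F statistic. DESeq2 1.42.0, voom of limma 3.58.1, other scalings, filters, units, a depth covariate and omitted samples were alternatives, and the fit was tested on simulated data. Comparisons between depth sets by column carry no test. Exon lengths and overlaps come from GENCODE vM21 (GRCm38), which holds 99.1% of the deposited identifiers. Coordinates are given for the 3 promoter windows shown, as RefSeq places them on GRCm38.p6, and for no gene.

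The 26 members, the lists and the 60 M division were chosen with earlier results of these data known. Every sample's value is given for the 8 members with the smallest p and the 4 with the highest level per kilobase; of each further list, genes that passed and the most abundant were to be named, and 1 such result is not reported here. Hmgcs1, Srebf2 and Scap were given in full after their values were seen.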

Additional observations from a re-analysis of the deposited data

Results flagged for a closer look

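Within each label, the highest and lowest of its columns were set against the others, on the log2(CPM + 1) scale, for each of the 26 members and for the sums of 3 of their groups, 58 sets in all. In 5 of the 58 sets, each of a single member, a column lay far from the rest. For independent columns chance alone gives about 1 in 20 sets, but these include repeat columns of a sample. The 5 are described and not said to exceed chance. Mvk was at 6.46 CPM in Olfr2+ column 2B, and at 0 to 1.25 CPM in the other Olfr2+ columns. Idi1 was at 0.148 CPM in Olfr2+ column 3D, and at 0 to 0.0335 CPM in the others. With 4, 5 and 1 counts in Olfr2+ samples 2, 3 and 4, that flag rests on a few counts near 0. Among Olfr2- columns, Mvd was at 37.9 CPM in column 4B and at 0.921 to 2.89 CPM in the others, and Srebf2 at 106 CPM in the same column, against 9.2 to 16.6 CPM. Hsd17b7 was at 213 CPM in Olfr2- column 3A, and at 1.02 to 5.21 CPM in the others.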

How the results depend on the processing

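No member was called by edgeR in any alternative except 1 (Lbr, lower, when genes of at least 10 CPM set the scaling), and DESeq2 called 5 higher. The numbers of all genes called higher and lower, 273 and 112, became 885 and 683 per library name, 649 and 244 per column, 86 and 310 on library totals, 642 and 239 without a filter, 526 and 3 on genes of at least 10 CPM, 90 and 705 when those genes set the scaling (members lower 1), and 4016 and 2695 with DESeq2. They were 0 and 0 under 60 M (3127 genes with unadjusted p under 0.05), with depth as a covariate (2610), with the 10 CPM filter and recomputed TMM (1389) and with limma-voom (7537). The fits per library name and per column take parts of a numbered sample as independent, so their counts are not those of separate samples. Leaving out 1 sample gave 6 (without Olfr2+ sample 2) to 973 (without Olfr2+ sample 4) higher and 0 to 113 lower. The members' median, 1.72, was -0.747 under 60 M, -0.825 with the depth covariate, 0.585 on library totals, 0.528 with the 10 CPM filter and recomputed TMM, 0.073 with scaling from those genes, and 1.34 to 2.56 with 1 sample left out. All columns above 60 M are Olfr2+, so with depth as a covariate the fold changes rest on the columns under 60 M. That fit and the fit under 60 M are therefore not separate checks. The cause of the changes between alternatives was not tested.

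Log2 fold changes that changed sign are given by alternative. Under 60 M these were Hmgcs1 -2.05, Mvk -0.721, Ggps1 -0.873, Fdft1 -0.105, Sqle -2.35, Lss -0.86, Nsdhl -2.17, Hsd17b7 -0.774, Srebf1 -1.53, Insig1 -1.46, Scd2 -0.945 and Icmt -3.23. With depth as a covariate they were Hmgcs1 -2.16, Mvk -0.826, Ggps1 -1.01, Fdft1 -0.15, Sqle -2.46, Lss -1.02, Nsdhl -2.27, Hsd17b7 -0.824, Srebf1 -1.56, Insig1 -1.53, Scd2 -1.05 and Icmt -3.29. On library totals they were Mvk -1.15, Lss -0.242, Hsd17b7 -1.04, Stard4 -0.596 and Scd2 -0.737, and with scaling from genes of at least 10 CPM Mvk -1.63, Ggps1 -0.0835, Lss -0.912, Hsd17b7 -1.22, Dhcr7 -0.251, Stard4 -0.676 and Scd2 -1.32. The 10 CPM filter with recomputed TMM gave Hsd17b7 -1.22, Stard4 -0.676 and Scd2 -1.32, no filter Stard4 -0.00459, library names Mvd 0.0653, Cyp51 0.0241 and Stard4 -0.214, and single columns Mvk -0.471 and Stard4 -0.67. DESeq2 gave Cyp51 0.154, and limma-voom Mvk -0.8, Mvd 0.233, Cyp51 0.807 and Sc5d 0.706. With 1 sample left out the ranges were -0.717 to 2.56 for Cyp51, -1.99 to 0.233 for Fdps, -0.182 to 2.36 for Ggps1, -0.928 to 4.85 for Hsd17b7, -2.11 to 4.69 for Icmt, -2.27 to 0.209 for Lbr, -1.29 to 2 for Mvd, -1.08 to 0.867 for Mvk, -1.57 to 2.03 for Sc5d and -1.16 to 3.3 for Stard4.

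Numbers 3 and 4 occur in both labels but nothing says that they pair samples, and same-numbered deviations correlated at 0.0125 and -0.0495 (crossed numbers, 0.0324 and -0.101). With the replicate block, 2 genes were called higher and 0 lower (1682 with unadjusted p under 0.05), and 0 members were called. The sign changed for Mvk -1.73, Sc5d 1.34, Insig2 -0.332 and Icmt -2.14. Numbers 1 and 2 each occur in 1 label, so the label effect of this fit rests on samples 3 and 4. Its counts therefore cannot be read as an effect of pairing alone.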
